A study of Mus musculus with 6 samples.

Results

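Oxidative phosphorylation is run by 5 protein complexes of the inner mitochondrial membrane, and its genes sit in both genomes of the cell. The genes described here were all features whose symbol starts with mt-, Nduf, Uqcr, Atp5 or Sdh, or with Cox and a digit from 4 to 8, which gave 111 of the 32285 features in the deposited tables. Of these, 13 were mitochondrial and 98 nuclear. The nuclear genes comprised 85 structural subunits, 12 assembly factors and Ndufb1-ps, which the annotation calls a non-coding RNA read from a bidirectional promoter.

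Complexes I and II feed electrons from NADH and succinate to ubiquinone, complex III passes them to cytochrome c, and complex IV hands them to oxygen. Complex V, the ATP synthase, uses the resulting proton gradient to make ATP. Mitochondrial DNA encodes a few hydrophobic core subunits of complexes I, III, IV and V, every other subunit is translated in the cytosol and imported, and complex II has no mitochondrially encoded part. T cells move between glycolysis and oxidative phosphorylation as they rest, become activated or turn into memory cells.

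The libraries held T cells from the kidneys of male wild-type C57BL/6J mice of 7 to 8 weeks, sorted as CD45+ and αβ TCR+ and then as CD4+ (CD4), CD8+ (CD8) or negative for both (double negative, DN). Control kidneys came from normal mice, and ischemia-reperfusion (IR) kidneys from mice whose renal pedicles were both closed with clamps for 30 min and then released. Each of the 6 groups was 1 library of 3′ droplet single-cell RNA-seq, so no difference has a replicate check, and how many mice went into a library is not stated in the labels or methods. After filtering, 47939 of 54039 barcodes were kept, from 4042 in IR DN to 10108 in IR CD4, and the text compares the sums of unique molecular identifiers (UMIs, 1 per captured RNA molecule) over the cells of a library.

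All 6 markers of T cells had UMIs in every library, and Cd4 was at 210 and 146 CPM (counts scaled to one common library total) in the control and IR CD4 libraries against at most 0.466 CPM in the other libraries. The median kept cell held 7024, 6626 and 8365 UMIs in the controls (CD4, CD8, then DN), and 2356, 1758 and 1451 in the IR libraries. Ribosomal protein genes took 16.5, 22.8 and 16.5% of the UMIs in the controls and 35.6, 43.1 and 27.6% after IR. The file headers name Cell Ranger 5.0.1 for the 3 control tables and 6.0.1 for the 3 IR tables, so the software version and the condition cannot be told apart. Barcodes dropped for over 20% mitochondrial UMIs numbered 66 to 154 in the controls and 6 to 9 after IR. Between 8 and 168 barcodes were shared by any pair of libraries, and leaving them out is among the alternatives given at the end.

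Nuclear subunits are given as CPM of the retained features, a total that leaves out mitochondrial genes, ribosomal protein genes and Malat1. Mitochondrial genes are given as CPM of all UMIs, or as a percent of them. Intervals are exact 95% intervals for counts and cover counting error only. A ratio with no test is called higher or lower past 1.5-fold where the gene reached 10 CPM in the higher library. In these sums, fewer RNA molecules per mitochondrion, fewer mitochondria per cell and a different mix of cells cannot be told apart.

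The mitochondrial genome is compact, and some of its genes share bases, which bears on the values of single genes. The end of mt-Atp8 and the start of mt-Atp6 share 43 bases, and the end of mt-Nd4l and the start of mt-Nd4 share 7 bases (GENCODE M21 annotation, GRCm38). The stretches are shown because mt-Atp8 and mt-Nd4l departed from the other mitochondrial genes below. The shared bases are in capitals, with 10 bases on either side, read along the heavy-strand transcript at chrM:7917-7979 and chrM:10157-10183.
mt-Atp8 to mt-Atp6: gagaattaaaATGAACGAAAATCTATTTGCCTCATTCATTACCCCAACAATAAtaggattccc
mt-Nd4l to mt-Nd4: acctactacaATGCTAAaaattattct

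The mitochondrial and nuclear genes differed between control and IR in opposite directions, in all 3 subsets. The 13 mitochondrial genes held 2.33, 1.75 and 1.85% of all UMIs in the control CD4, CD8 and DN libraries, and 1.12, 0.915 and 0.877% in the IR libraries in the same order. The 3 control libraries were all above the 3 IR libraries. The 85 nuclear subunits held 1.31, 1.5 and 1.51% of all UMIs in the controls and 2.03, 1.98 and 2.14% after IR, with every IR library above every control library.

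**Figure D1:**
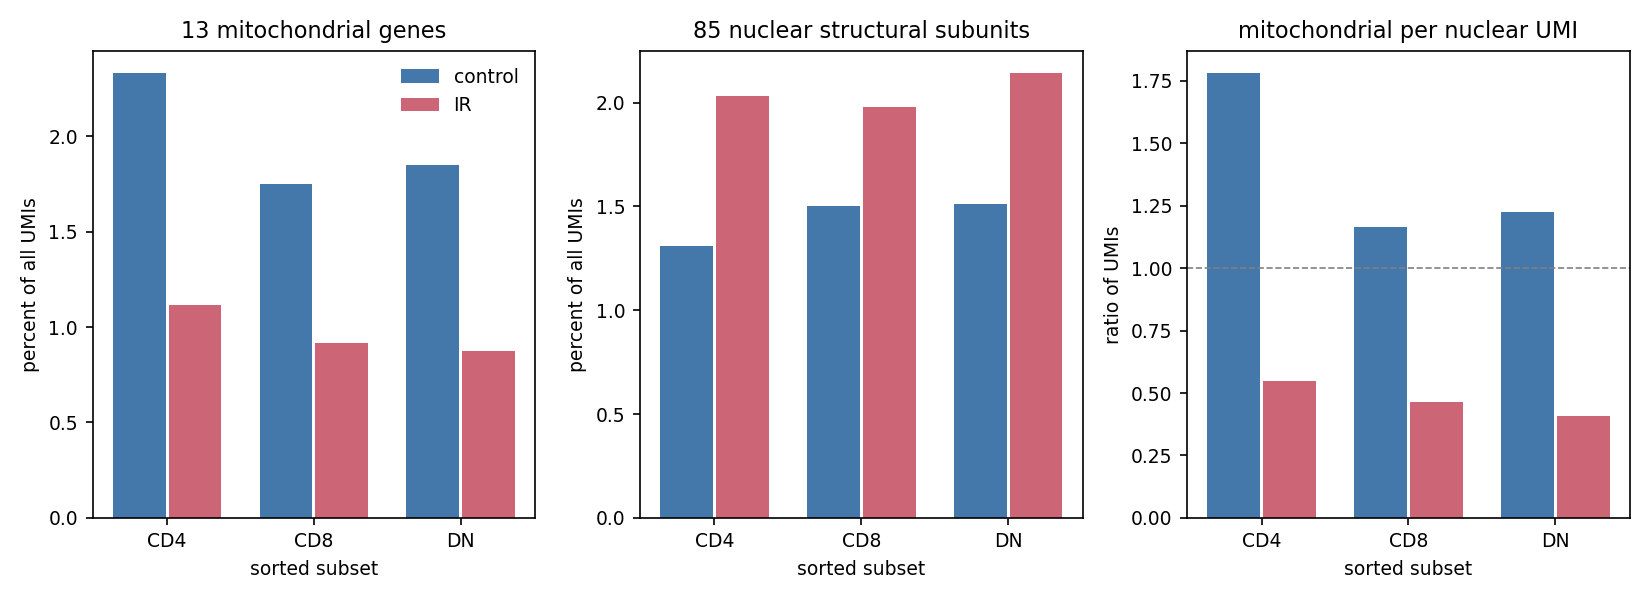
Bars give the percent of all UMIs (y axes of the left and middle panels) held by the 13 mitochondrial genes and the 85 nuclear structural subunits, and the number of mitochondrial UMIs per nuclear subunit UMI (right panel, dashed line at 1), for the 3 sorted subsets (x axis) in control and IR, 1 library each. The ratio lay between 1.17 and 1.78 in the control libraries and between 0.409 and 0.549 in the IR libraries.

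The ratio of the mitochondrial to the nuclear sum needs no scaling by library size. There were 1.78 mitochondrial UMIs per nuclear subunit UMI in control CD4, 1.17 in control CD8 and 1.23 in control DN. After IR the ratios were 0.549 (95% interval 0.547 to 0.552) in CD4, 0.462 (0.459 to 0.466) in CD8 and 0.409 (0.405 to 0.413) in DN. On the log2 scale the ratio decreased by 1.70 in CD4, by 1.34 in CD8 and by 1.58 in DN from control to IR, and by 1.68, 1.35 and 1.27 when all deposited barcodes were used. Mitochondrial UMIs thus outnumbered nuclear subunit UMIs in every control library and in no IR library.

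Control and IR cells of a subset fell into largely separate clusters, in a clustering without the batch correction that the paper applied. Most control CD4 cells were in clusters 4, 9, 2 and 11 and most IR CD4 cells in clusters 16, 21 and 7. For CD8 they were in clusters 14, 3 and 15 in control and 20 and 19 after IR, and for DN in clusters 9, 10 and 11 in control and 16 after IR. The condition and the cluster therefore cannot be told apart for most cells. Cluster 8 held 406 control CD4 cells and 560 IR CD4 cells, which had 2.11 and 1.22% mitochondrial UMIs and 1.33 and 2.10% nuclear subunit UMIs. In cluster 6 there were 1.17 mitochondrial UMIs per nuclear subunit UMI in 96 control DN cells and 0.375 in 59 IR DN cells.

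The order of the conditions was also seen in the medians over cells. With every cell thinned to 1000 UMIs, the median mitochondrial share was 2.1, 1.6 and 1.7% in the controls (CD4, CD8, then DN) and 1.1, 0.8 and 0.8% after IR. The median share of nuclear subunits was 1.2, 1.5 and 1.5% in the controls and 2.0, 1.9 and 2.1% after IR. Cells with more mitochondrial than nuclear subunit UMIs made up 79.4, 53.2 and 60.1% of the thinned control cells (CD4, CD8, then DN) and 16.3, 12.4 and 8.17% of the IR cells. Thinning left out 30 to 565 cells a library, the most in control CD8, and the unthinned medians lay within 0.1 percentage points of the thinned ones.

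Cells with a high mitochondrial share were found mostly in the controls. The 95th percentile of the thinned share was 7.4, 4.8 and 3.8% in the control CD4, CD8 and DN libraries and between 2.0 and 2.3% after IR. The high shares went with depth and with cluster. Control cells with 2000 to 4000 UMIs had 4.35, 3.25 and 4.35% mitochondrial and 0.605, 1.17 and 0.818% nuclear subunit UMIs, whereas IR cells of the same depth had 1.10, 0.909 and 0.912% and 1.99, 1.99 and 2.09%. In that window, chosen after the data were seen, the conditions differed more than over all cells. It held 1095, 760 and 378 control cells (CD4, CD8, then DN), a small part of each control library, and 6295, 2199 and 733 IR cells. In CD4 cells with 4000 to 8000 UMIs, 4177 in control and 605 after IR, the mitochondrial shares were 2.12 and 1.11%. Their nuclear subunit shares were 1.34 and 2.15%, so that these cells differed about as much as the whole CD4 libraries. Control CD4 cells with 8000 to 16000 UMIs had 2.15% mitochondrial and 1.38% nuclear subunit UMIs, close to the values of the whole library. Clusters 2 and 12 had the highest mitochondrial and the lowest nuclear shares. Cluster 2 held 1638, 464 and 503 cells of the control CD4, CD8 and DN libraries and 125, 30 and 68 cells of the IR libraries, and cluster 12 held 168, 148 and 0 control cells and 16, 2 and 0 IR cells. In cluster 2 there were 10.7, 7.95 and 12.8 mitochondrial UMIs per nuclear subunit UMI in the controls, and 3.37 and 2.91 in IR CD4 and IR DN. The nuclear share there was 0.463% in control CD4 and 0.585% in IR CD4. Cluster 12 was at 15.9 in control CD4 and 18.7 in control CD8. In the other clusters with at least 50 cells of a library, the ratio lay between 0.902 and 2.47 in the controls and between 0.315 and 0.741 after IR. Leaving out clusters 2 and 12 rests on the measured shares themselves, so these ranges are a description.

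Among the nuclear subunits, 58 of the 77 at 10 CPM or more in CD4 were past 1.5-fold higher after IR and 1 was lower, where 15.6% of all features tested were higher and 33.1% lower. In CD8 49 of 78 were higher and 3 lower, beside 13.2 and 38.2% of all features. In DN 43 of 77 were higher and 3 lower, beside 15 and 30.3%. Their median log2 ratio was 0.86 in CD4, 0.72 in CD8 and 0.63 in DN, against -0.26, -0.38 and -0.26 over all features tested.

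The total used for scaling moved these counts. The sum of the 85 subunits was 1.98-fold higher in CD4, 1.77-fold in CD8 and 1.60-fold in DN, on the CPM of the retained features (log2 0.99, 0.82 and 0.68). Scaled to all UMIs, the log2 ratios of the sum were 0.63, 0.40 and 0.50. On that scale 36 subunits were higher and 5 lower in CD4, beside 8.23 and 52.5% of all features. In CD8 22 were higher and 11 lower, beside 7.02 and 62.7%, and in DN 30 were higher and 5 lower, beside 11 and 41.5%.

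The mitochondrial sum was below control under both totals, but so was the median feature. On the scale of all UMIs, 9 of the 13 were past 1.5-fold lower in CD4, 9 in CD8 and 10 in DN, to be read against the 52.5, 62.7 and 41.5% of features just given. Their summed share was 0.478, 0.522 and 0.473 of the control share in CD4, CD8 and DN, or log2 -1.06, -0.94 and -1.08. The median log2 ratio of all features on this scale was -0.63, -0.81 and -0.44. Scaled to retained UMIs, the mitochondrial sum had log2 ratios of -0.71, -0.51 and -0.90, against medians of -0.26, -0.38 and -0.26. The mitochondrial sum was thus below the median feature in each subset, by the smallest margin in CD8.

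**Figure D2:**
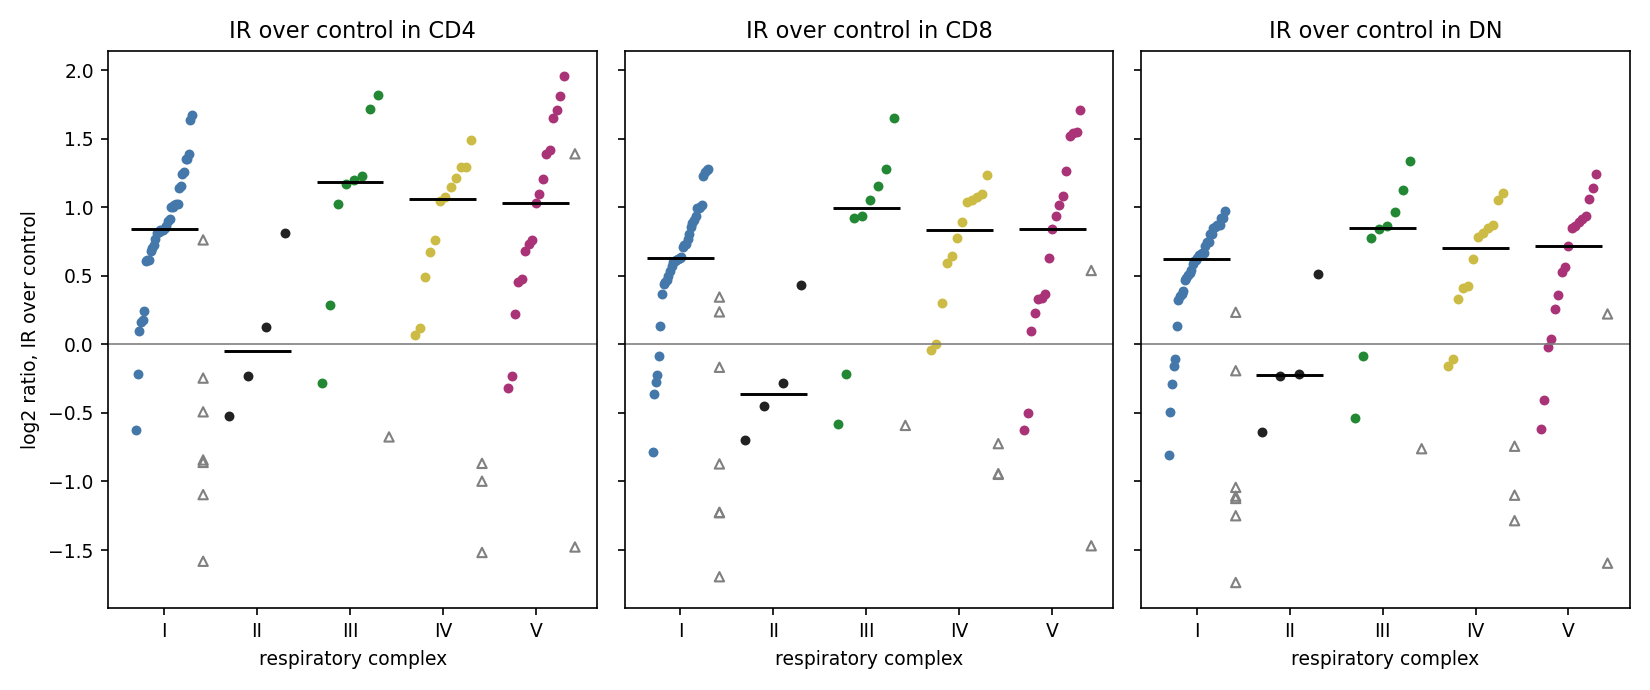
Each dot is a nuclear structural subunit at 10 CPM or more in some library, placed by its complex (x axis) and its log2 ratio of IR over control (y axis) in CD4, CD8 and DN, with the black line at the median of the dots and Cox4i2 left out. Grey triangles are mitochondrial genes of the same complex. Dots are scaled to retained features and triangles to all UMIs, so their heights are not on one scale. Most dots of complexes I, III, IV and V lie above 0, most triangles lie below 0, and the 4 subunits of complex II lie around 0.

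Complex I, the NADH dehydrogenase, has 36 nuclear subunits in the list, and their sum was at 4740, 5721 and 5484 CPM in the controls (CD4, CD8, then DN) and at 9050, 9596 and 8440 CPM after IR. The log2 ratios of the sum were 0.93, 0.75 and 0.62. Of the 36 subunits, 30 were past 1.5-fold higher in CD4, 23 in CD8 and 21 in DN, and Ndufs1 was the 1 subunit past 1.5-fold lower in each, beside 15.6, 13.2 and 15% of all features higher and 33.1, 38.2 and 30.3% lower. The 29 accessory subunits had summed log2 ratios of 0.97, 0.79 and 0.64. The 7 nuclear core subunits, which form the arm that carries electrons from NADH to ubiquinone, had 0.60, 0.39 and 0.41. The core subunits scaled to all UMIs were at 0.24, -0.04 and 0.23. The median transcript was 1312 bases long for the core and 704 bases for the accessory subunits. This division by role, and those of complexes III and V, were made after the values were seen.

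Ndufs1, the largest core subunit and a carrier of iron-sulfur clusters (GRCm38 chr1:63143596-63176833, minus strand), was at 53.8, 57.4 and 54.2 CPM in the control CD4, CD8 and DN libraries. After IR it was at 35.0, 33.4 and 31.0 CPM, below every control. Its log2 ratios were -0.62 (-0.76 to -0.49), -0.78 (-0.99 to -0.58) and -0.81 (-1.06 to -0.56). An exon of Ndufs1 shares 320 bases with Ino80dos on the opposite strand. Whether reads of both genes were kept apart there depends on the use of strand in counting, which the methods do not spell out. Ino80dos itself was at 13.4, 13.3 and 12.9 CPM in the controls and 8.73, 10.9 and 10.9 CPM after IR.

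Ndufa3, an accessory subunit of the membrane arm, showed the opposite pattern, with 159, 208 and 302 CPM in the controls (CD4, CD8, then DN) and 493, 505 and 462 CPM after IR. Ndufa6 went from 195, 240 and 215 CPM to 333, 420 and 269 CPM, and Ndufb7 from 217, 260 and 241 to 354, 336 and 373 CPM. The IR libraries were above all controls for each of these genes. For Ndufb7 in CD8 the log2 ratio of 0.37 became -0.05 when scaled to all UMIs. The core subunit Ndufs3 was at 88.8, 109 and 84.0 CPM in the controls and 157, 167 and 133 CPM after IR.

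Complex II, succinate dehydrogenase, oxidizes succinate and also belongs to the tricarboxylic acid cycle. Its 4 subunits summed to 349, 388 and 374 CPM in the control CD4, CD8 and DN libraries and to 402, 368 and 375 CPM after IR, with log2 ratios of 0.20 (0.16 to 0.25), -0.08 (-0.14 to -0.01) and 0.00 (-0.07 to 0.08). Scaled to all UMIs, they were -0.15, -0.50 and -0.17. The subunits did not move together. Sdha, the flavoprotein that binds succinate, was at 122, 126 and 123 CPM in the controls and 84.9, 77.5 and 79.1 CPM after IR, so that all IR libraries were below all controls. Sdhb, the iron-sulfur protein, was at 121, 151 and 142 CPM in the controls and 213, 203 and 203 CPM after IR.

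The membrane anchors of complex II hold it in the inner membrane. Sdhc was at 46.3, 45.3 and 48.3 CPM in the controls and 39.4, 33.2 and 41.5 CPM after IR, again below every control. The margin was small in DN, where the 4 subunits together had 1645 UMIs after IR. Sdhd was at 59.1, 65.7 and 60.1 CPM in the controls and 64.7, 54.2 and 51.3 CPM after IR, and here the groups overlapped. Past 1.5-fold, Sdhb was the 1 subunit higher, in CD4, and Sdha the 1 lower, in CD8 and in DN. Of all features 15.6% were higher in CD4, and 38.2 and 30.3% lower in CD8 and DN, so these calls of 1 in 4 subunits are no result about the complex. The calls changed with the total. Scaled to all UMIs, Sdhb was not past the limit, and Sdha was lower in each subset, Sdhc in CD4 and CD8, and Sdhd in CD8. On that scale 52.5, 62.7 and 41.5% of all features were lower in CD4, CD8 and DN.

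Complex III, the cytochrome bc1 complex, had 8 nuclear subunits in the list. These summed to 1623, 2016 and 1812 CPM in the controls and 3643, 4099 and 3275 CPM after IR. The log2 ratios of the sum, 1.17, 1.02 and 0.85, were the largest of the 5 complexes in each subset. Cytochrome c1 (Cyc1), a further nuclear subunit that the symbol rule leaves out, had 0.49, -0.06 and 0.20. Of the 8 genes, 6 were past 1.5-fold higher in each subset, beside the 15.6, 13.2 and 15% of all features. The 5 small subunits Uqcrh, Uqcrb, Uqcrq, Uqcr10 and Uqcr11 had summed log2 ratios of 1.30, 1.17 and 0.98, whereas the core proteins Uqcrc1 and Uqcrc2 with the Rieske iron-sulfur protein Uqcrfs1 had 0.48, 0.20 and 0.10. Scaled to all UMIs, the latter were at 0.12, -0.22 and -0.08. Median transcript lengths were 474.5 bases for the small subunits and 1653 bases for the latter.

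Uqcr10, a small subunit beside cytochrome c1 (chr11:4701973-4704342, minus strand), was at 152, 218 and 208 CPM in the controls (CD4, CD8, then DN) and at 536, 684 and 526 CPM after IR. Every IR library was above every control, and the log2 ratios were 1.82 (1.77 to 1.86), 1.65 (1.60 to 1.70) and 1.34 (1.28 to 1.4). Uqcrb was at 220, 231 and 254 CPM and then at 448, 438 and 496 CPM. Uqcrfs1 was at 104, 136 and 99.7 CPM in the controls and 238, 260 and 171 CPM after IR. Uqcrc2, one of the core proteins, was below every control after IR but not past 1.5-fold, with 136, 152 and 135 CPM in the controls and 112, 102 and 92.8 CPM. Scaled to all UMIs, it was past 1.5-fold lower in each subset.

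Complex IV, cytochrome c oxidase, takes its catalytic subunits from mitochondrial DNA, and the nuclear subunits surround them. The 20 nuclear genes summed to 4465, 5598 and 5311 CPM in the controls and 8688, 9846 and 8697 CPM after IR, with log2 ratios of 0.96, 0.82 and 0.71. None of the 12 or 13 genes that reached 10 CPM was past 1.5-fold lower in any subset, and 9, 10 and 7 were higher, beside 33.1, 38.2 and 30.3% of all features lower and 15.6, 13.2 and 15% higher. Cox8a was at 689, 923 and 920 CPM in the controls and 1598, 1945 and 1982 CPM after IR, without overlap.

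Several complex IV subunits come as tissue isoforms, and the isoform known from most tissues was the one detected at 10 CPM or more, with Cox4i2 as the exception described below. Cox6a1 was at 160, 189 and 203 CPM in the controls and 271, 285 and 269 CPM after IR, while the muscle form Cox6a2 had 0 to 20 UMIs a library. Cox6b1 was at 326, 406 and 401 CPM and then at 686, 696 and 618 CPM, and the testis form Cox6b2 had 1 to 33 UMIs. Cox7a2 was at 260, 321 and 336 CPM and then at 575, 661 and 590 CPM, and the muscle form Cox7a1 had 5 to 33 UMIs. Cox7b was at 276, 324 and 340 CPM and then at 440, 505 and 427 CPM. Cox7b2, Cox8b, Cox8c and Ndufa4l2 had at most 3 UMIs in every library, which at a floor of 3 counts allows up to 0.684 CPM in the shallowest library, IR DN. Ndufa4, the paralog of Ndufa4l2, was at 360, 477 and 444 CPM and then at 741, 884 and 798 CPM.

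Cox4i1, the main form of subunit 4, was an exception among the abundant subunits. It was at 598, 639 and 516 CPM in the control CD4, CD8 and DN libraries and at 626, 622 and 478 CPM after IR, with log2 ratios of 0.07, -0.04 and -0.11. The isoform Cox4i2, known from lung and from cells short of oxygen (chr2:152754173-152765037, plus strand), had 10, 8 and 17 UMIs in the controls and 48, 143 and 24 UMIs after IR. That was 0.198, 0.176 and 0.280 CPM against 3.1, 22.2 and 5.47 CPM. The 143 UMIs of IR CD8 came from 123 of 6332 cells, with at most 3 in a cell. Its log2 ratio in CD8 was 6.98 (5.96 to 8.22), and even there Cox4i1 was at 622 CPM.

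Complex V, the ATP synthase, had 17 nuclear subunits that summed to 5406, 6721 and 6284 CPM in the controls and 11122, 12249 and 10054 CPM after IR. The log2 ratios were 1.04, 0.87 and 0.68. The summed ratios differed between the parts of the enzyme. The alpha, beta and gamma subunits of the catalytic head, Atp5a1, Atp5b and Atp5c1, had summed log2 ratios of -0.03 (-0.06 to -0.01), -0.24 and -0.25. The 5 small subunits of the membrane sector, Atp5j2, Atp5k, Atp5l, Atp5md and Atp5mpl, had 1.56, 1.35 and 0.96. The 3 c-subunit genes, which encode one and the same mature rotor protein, had 1.14, 1.0 and 0.91, and the 4 subunits of the peripheral stalk 0.63, 0.43 and 0.36. The median transcript length was 1916 bases for alpha, beta and gamma, 676 bases for delta and epsilon and 489 bases for the small membrane subunits. It was 718.5 bases for the c-subunit genes and 790 bases for the stalk. The relation of length to the ratios is given below. Within the head, Atp5a1 had log2 ratios of -0.23, -0.50 and -0.41 and Atp5c1 had 0.46, 0.34 and 0.26. The ratios of Atp5c1 scaled to all UMIs were 0.10, -0.08 and 0.09. On that scale alpha, beta and gamma together were at -0.39, -0.66 and -0.42, and delta and epsilon at 1.17, 0.82 and 0.83. The stalk was at 0.28, 0.01 and 0.18.

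Atp5b, the catalytic beta subunit (chr10:128083273-128090391, plus strand), was at 388, 436 and 378 CPM in the controls (CD4, CD8, then DN) and at 310, 283 and 246 CPM after IR, below every control. Atp5k, the small subunit e (chr5:108433244-108434448, minus strand), was at 131, 179 and 254 CPM in the controls and at 509, 585 and 530 CPM after IR, and its log2 ratios were 1.96, 1.71 and 1.06. Atp5e, the epsilon subunit of the head, was at 539, 774 and 802 CPM and then at 1886, 2214 and 1765 CPM. Atp5md was at 231, 258 and 343 CPM and then at 756, 757 and 813 CPM. For Atp5k, Atp5e and Atp5md, the lowest IR library was above the highest control.

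Each c-subunit gene was higher after IR. Atp5g1 was at 198, 263 and 208 CPM in the controls and 404, 505 and 385 CPM after IR. Atp5g2 was at 403, 555 and 395 CPM and then at 931, 1175 and 757 CPM. Atp5g3 was at 188, 221 and 186 CPM and then at 401, 395 and 335 CPM. Atp5mpl was at 166, 244 and 279 CPM and then at 521, 711 and 459 CPM. Atp5f1, a stalk subunit, was at 306, 343 and 314 CPM and then at 427, 367 and 322 CPM. Its log2 ratios were 0.48, 0.10 and 0.04 on this scale and 0.12, -0.33 and -0.14 scaled to all UMIs.

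**Figure D3:**
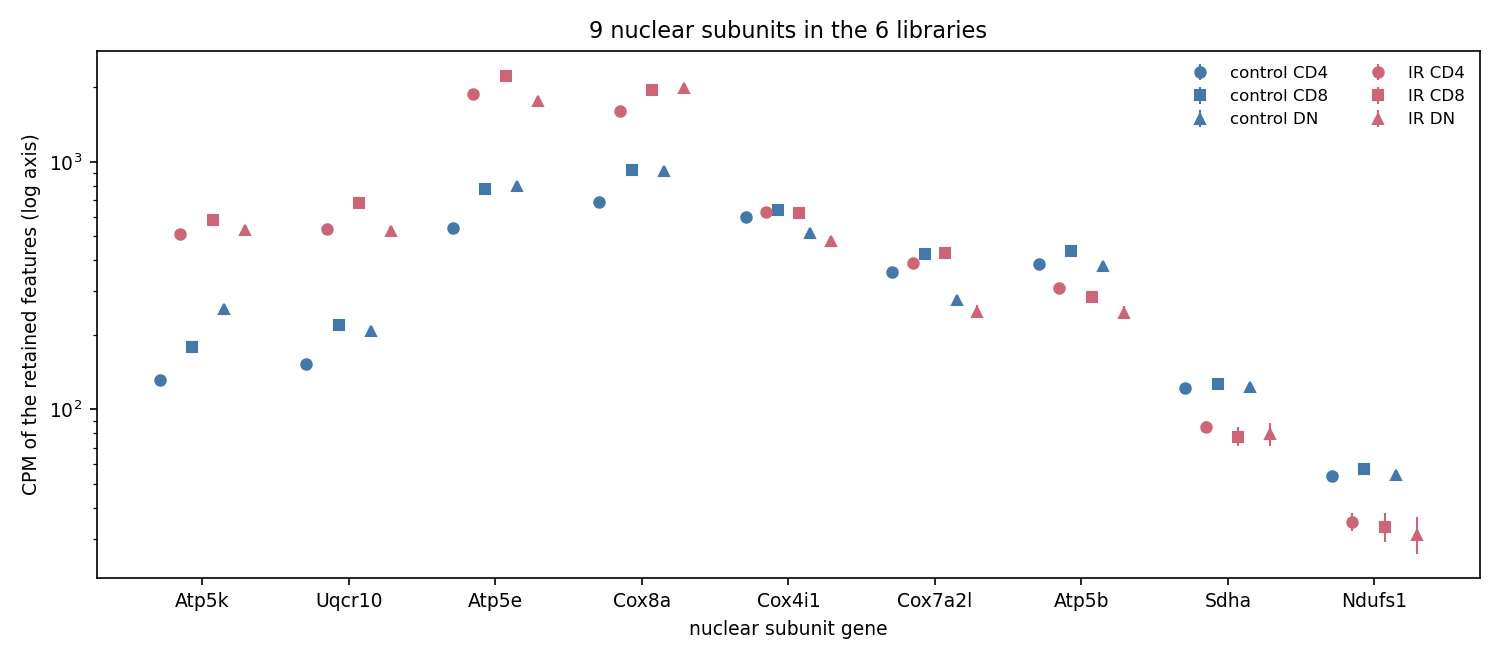
Points give the level of 9 nuclear subunits (x axis) in the 6 libraries as CPM of the retained features on a log axis, with exact 95% counting intervals, control in blue and IR in red, and circles, squares and triangles for CD4, CD8 and DN. Atp5k, Uqcr10, Atp5e and Cox8a lie higher in all IR libraries, Atp5b, Sdha and Ndufs1 lower, and Cox7a2l is lowest in DN of both conditions.

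Subunits with shorter transcripts had higher ratios of IR over control. Transcript length was taken as the median over the GENCODE M21 basic transcripts of a gene, and was 744 bases for the median subunit at 10 CPM against 2596 bases for the median feature. Over the 77 or 78 subunits, Spearman's rho between length and the log2 ratio was -0.70 in CD4, -0.72 in CD8 and -0.64 in DN. Over all 9034 to 9199 features it was -0.46, -0.36 and -0.36. These are descriptions across genes of the same libraries, which are not independent replicates.

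All 34 subunits with transcripts under 700 bases had log2 ratios above 0 in each subset on the CPM of the retained features, with medians of 1.19, 1.05 and 0.84. Scaled to all UMIs, Ndufb7 (-0.05) and Cox5a (-0.12) fell below 0 in CD8. On the CPM of the retained features, the other features of that length had medians of 0.75, 0.64 and 0.63. Of these, 280 of 367, 283 of 374 and 301 of 385 were above 0. From 700 to 1000 bases the subunits had medians of 0.84, 0.62 and 0.55 and the other features 0.49, 0.30 and 0.38. From 1000 to 2000 bases the medians were 0.28, 0.01 and 0.04 for 19 subunits and 0.10, -0.17 and -0.04 for other features. From 2000 bases on they were 0.16, 0.13 and -0.29 for 7 subunits and -0.49, -0.55 and -0.43 for other features. The median subunit lay above the median of other features in each of these length classes. With the ratios centred within 20 classes of transcript length, a step added after the data were seen, the median subunit was at 0.34, 0.32 and 0.16, and 60 of 77, 59 of 78 and 54 of 77 were above 0. Centring puts the median of all features in each class at 0. Whether length, depth or the processing played a part in the differences was not tested.

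**Figure D4:**
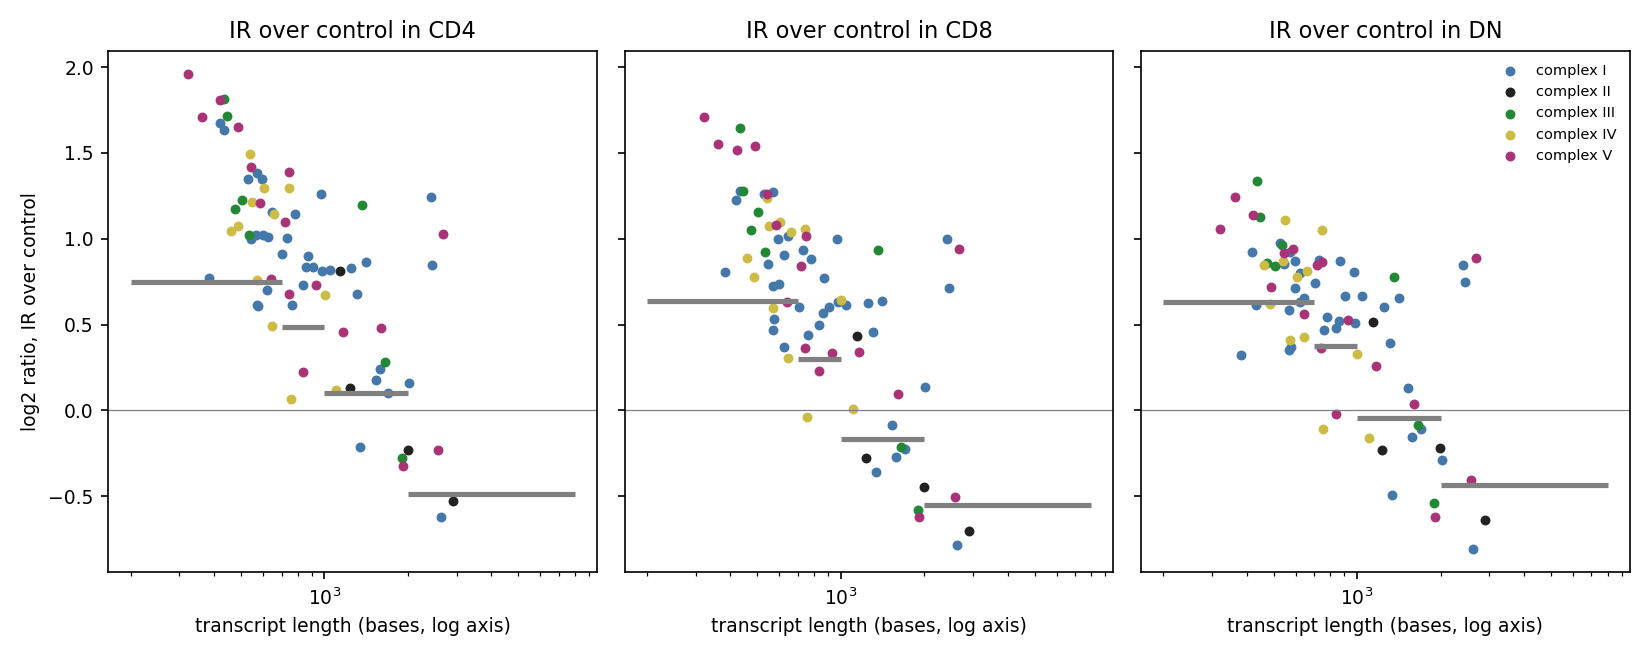
Each dot is a nuclear structural subunit (Cox4i2 left out), coloured by complex and placed by transcript length in bases (x axis, log) and its log2 ratio of IR over control (y axis) in CD4, CD8 and DN. Grey bars are medians of all other features in 4 length classes; dots under 700 bases all lie above 0 on this scale of retained features, and the bars fall from left to right.

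Over the 13 mitochondrial genes, Spearman's rho between length and the log2 ratio of IR over control was -0.47 in CD4, -0.60 in CD8 and -0.42 in DN, a description across genes of the same libraries. The longest genes were not the lowest: mt-Nd5 with 1824 bases was at -0.86, -1.23 and -1.11 and mt-Atp6 with 681 bases at -1.48, -1.47 and -1.60. The shortest, mt-Atp8 with 204 bases and mt-Nd4l with 297 bases, were the ones with log2 ratios above 0 in all 3 subsets. On the scale of all UMIs they were past 1.5-fold higher in CD4 and not in CD8 or DN. Scaled to retained UMIs, both were past 1.5-fold in CD8 as well. mt-Atp8, a subunit of complex V, was at 116, 192 and 229 CPM in the control CD4, CD8 and DN libraries and at 305, 279 and 267 CPM of all UMIs after IR, with log2 ratios of 1.39, 0.54 and 0.22. mt-Nd4l, of complex I, was at 188, 264 and 266 CPM and then at 318, 335 and 313 CPM of all UMIs, with log2 ratios of 0.76, 0.35 and 0.23. All IR libraries were above all controls for both genes.

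The neighbours with which they share bases went the other way. mt-Atp6, the proton-channel subunit of complex V, was at 5634, 3784 and 3947 CPM in the controls and at 2022, 1367 and 1306 CPM of all UMIs after IR. mt-Nd4 was at 1083, 1300 and 1203 CPM and then at 604, 555 and 506 CPM of all UMIs. Each pair is read from 1 messenger RNA, and the 43 and 7 shared bases printed above belong to both genes. How many UMIs came from the shared bases was not measured. The log2 ratio of mt-Atp6 and mt-Atp8 together was -1.31, -1.27 and -1.41.

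The other mitochondrial subunits of complex I were mostly lower. mt-Nd1 was at 948, 699 and 805 CPM in the controls and 444, 382 and 369 CPM of all UMIs after IR. mt-Nd2 was at 1245, 915 and 1098 CPM and then at 416, 283 and 329 CPM of all UMIs, and its log2 ratios of -1.58, -1.70 and -1.74 were the lowest of the 13 genes in each subset. mt-Nd5 was at 317, 355 and 338 CPM and then at 174, 152 and 157 CPM of all UMIs. mt-Nd3 was at 187, 157 and 251 CPM and then at 158, 140 and 122 CPM of all UMIs. mt-Nd6, the one subunit read from the other strand, was at 31.6, 26.2 and 27.9 CPM in the controls and 22.5, 30.8 and 24.4 CPM of all UMIs after IR, and these groups overlapped.

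The catalytic subunits of complex IV and cytochrome b of complex III were lower in every IR library than in any control. mt-Co1 was at 4417, 3719 and 3797 CPM in the controls and 2421, 2252 and 2269 CPM of all UMIs after IR. mt-Co2 was at 3436, 2545 and 2551 CPM and then at 1720, 1324 and 1190 CPM of all UMIs. mt-Co3 was at 3736, 2181 and 2534 CPM and then at 1305, 1131 and 1039 CPM of all UMIs. mt-Cytb was at 1994, 1385 and 1489 CPM and then at 1249, 920 and 879 CPM of all UMIs.

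**Figure D5:**
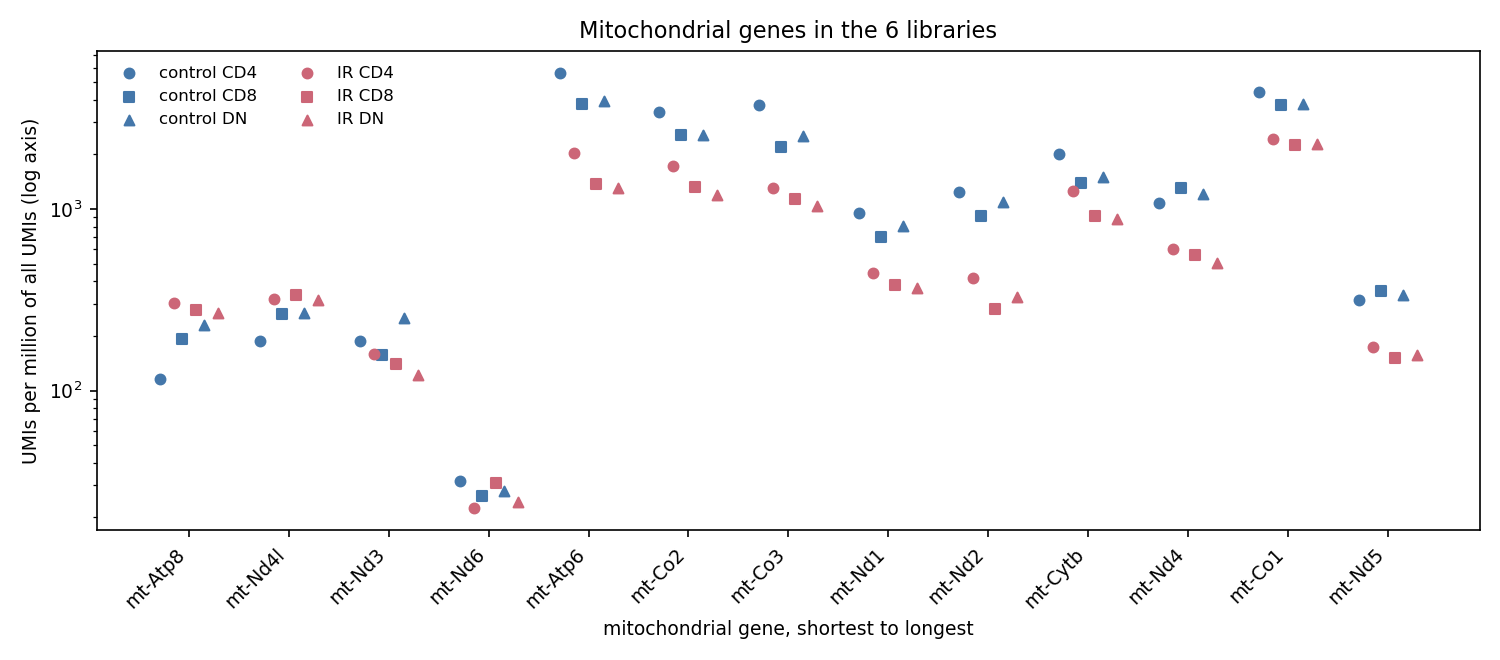
Points give the level of the 13 mitochondrial genes (x axis, from the shortest to the longest transcript) in the 6 libraries, as CPM of all UMIs on a log axis, with control in blue, IR in red, and circles, squares and triangles for CD4, CD8 and DN. The blue points lie above the red ones for 9 of the 13 genes, the reverse holds for mt-Atp8 and mt-Nd4l, and mt-Nd3 and mt-Nd6 overlap.

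As shares of the mitochondrial UMIs, mt-Atp8 went from 0.498, 1.09 and 1.23% in the controls (CD4, CD8, then DN) to 2.73, 3.05 and 3.04% after IR. mt-Nd4l went from 0.804, 1.51 and 1.44% to 2.85, 3.67 and 3.57%, and mt-Atp6 from 24.2, 21.6 and 21.3% to 18.1, 14.9 and 14.9%. mt-Cytb took 8.55, 7.91 and 8.04% in the controls and 11.2, 10.1 and 10.0% after IR. mt-Nd1 held between 3.98 and 4.34% in all 6 libraries, the narrowest range among the genes just named.

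The 12 assembly factors, which help to build complexes I and II and are absent from the finished enzymes, did not go one way. Of the 12, 3 were past 1.5-fold higher in CD4, 2 in CD8 and 2 in DN, and 0, 2 and 1 were lower, with medians of 0.09, -0.09 and -0.11. Of all features 15.6, 13.2 and 15% were higher and 33.1, 38.2 and 30.3% lower, so the share of assembly factors that were higher was near the background. Sdhaf1, an assembly factor for the iron-sulfur subunit of complex II, was named after its values were seen. It was at 39.9, 34.2 and 40.0 CPM in the control CD4, CD8 and DN libraries and at 312, 99.3 and 430 CPM after IR. Its log2 ratios were 2.97, 1.54 and 3.43. Sdhaf1 (chr7:30321406-30323895, minus strand) shares 1733 bases of exon with E130208F15Rik on the opposite strand. E130208F15Rik was at 8.78, 4.33 and 10.5 CPM in the controls and 32.8, 6.67 and 53.4 CPM after IR, with IR DN and IR CD4 the highest libraries for both genes.

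Ndufb1-ps (chr12:101968090-101977068, minus strand), also named after its values were seen, was at 214, 280 and 372 CPM in the controls and 854, 1040 and 850 CPM after IR. Its log2 ratios were 2.00, 1.89 and 1.19.

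Other genes of mitochondrial function are given by list, on the scale and past the 1.5-fold limit used for the subunits, to be read against 15.6, 13.2 and 15% of all features higher, 33.1, 38.2 and 30.3% lower, and medians of -0.26, -0.38 and -0.26 (CD4, CD8, then DN). The mitochondrial ribosome, which translates the 13 mitochondrial genes, had 35 of 77 genes higher in CD4, 22 in CD8 and 23 in DN, and medians of 0.53, 0.29 and 0.35. The 16 genes of the tricarboxylic acid cycle had none higher, 2, 6 and 4 lower, and medians of -0.14, -0.33 and -0.23, so that the share lower was no larger than that of all features. Of the 14 or 15 measured genes that keep up and express mitochondrial DNA, 2, 0 and 1 were higher and 2, 1 and 2 lower. Of 8 measured regulators of mitochondrial biogenesis, 1 was higher in each subset and 3, 3 and 2 lower. The assembly genes of complexes III and IV had 6 of 15, 3 of 17 and 4 of 15 higher and 2, 3 and 2 lower. The 8 carriers and pores had 3, 1 and 0 higher and none lower, and of cytochrome c and cytochrome c1, 1 was higher in each subset. The cytosolic ribosomal protein genes, on the same scale, had 67, 66 and 56 of 85 higher and medians of 1.22, 1.09 and 0.75.

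Markers of other cells had UMIs in every library, although the sort on CD45 and αβ TCR would remove tubule, endothelial, erythroid, myeloid, B and conventional NK cells. The summed levels of tubule, erythroid, myeloid, NK cell and B cell markers after IR were above those of the control of the same subset. The 11 tubule markers summed to 7.12, 6.06 and 10.2 CPM in the controls (CD4, CD8, then DN) and 8.14, 7.92 and 15.5 CPM after IR, with 1 or 2 of them at 0 in each control and 2, 5 and 6 at 0 after IR. The 5 erythroid markers summed to 1.87 to 2.06 CPM in the controls and 20.6 to 28.1 CPM after IR, with none at 0. The 7 myeloid markers summed to 5.09 to 18.3 CPM and then to 23.0 to 124 CPM, with 0 to 2 at 0 in the controls and none after IR. The 5 endothelial markers summed to 129, 99.9 and 45.7 CPM in the controls and 102, 80.4 and 47.0 CPM after IR, with at most 1 at 0 in a library, and a single marker made up 128.7 of the 129.1 CPM in control CD4. The 4 NK cell markers summed to 62.5, 253 and 304 CPM in the controls and 142, 617 and 382 CPM after IR, with none at 0, but T cells can express these genes too, and a single marker made up 579.9 of the 617.3 CPM in IR CD8. The 4 B cell markers summed to 2.37, 11.8 and 1.91 CPM and then to 11.5, 26.2 and 20.3 CPM, with at most 1 at 0. Tubule cells are rich in mitochondria, and the part of these other cells in the results was not tested.

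The DN libraries were next set beside the CD4 and CD8 libraries of the same condition, where the differences were smaller. CD4 had the highest mitochondrial share in both conditions. In control, the log2 ratio of DN was -0.33 over CD4 and 0.08 over CD8. After IR, DN was at -0.35 against CD4 and -0.06 against CD8. Scaled to retained UMIs, the ratios against CD8 were -0.02 in control and -0.41 after IR, and without cell filters they were -0.03 and 0.11. DN and CD8 thus had no stable order in either condition. Without cell filters, DN over CD4 was -0.34 in control and -0.08 after IR. mt-Atp8 was the mitochondrial gene with the largest ratio of DN over CD4 in control, at 0.97, and mt-Co3 had the smallest, at -0.56.

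For nuclear subunits, the control DN library was above CD4 (log2 0.22) and close to CD8 (-0.09). In IR it was at -0.09 against CD4 and -0.23 against CD8. Scaled to all UMIs, these 4 log2 ratios were 0.21, 0.01, 0.08 and 0.12, so that in this scaling 3 of the 4 changed sign and only DN above CD4 in control kept its direction. Past 1.5-fold, DN over CD4 in control had 5 of 77 subunits higher and 0 lower, beside 3.92 and 3.32% of all features. DN over CD8 in control had 0 higher and 1 lower, beside 7.46 and 6.51%. After IR, DN over CD4 had 0 higher and 1 lower of 77, beside 9.79 and 5.33%, and DN over CD8 had 0 higher and 7 lower of 78, beside 16.4 and 9.35%. In the comparisons other than DN over CD4 in control, the subunits past the limit were thus no larger a share than those of all features.

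Among the subunits at 50 CPM or more, Cox7a2l had the smallest ratio of DN over CD4 and over CD8, in control and after IR alike. Its protein links complexes III and IV into supercomplexes, and C57BL/6 mice are known for a shortened form of it. Cox7a2l (chr17:83501918-83517330, minus strand) was at 359, 425 and 278 CPM in the control CD4, CD8 and DN libraries and at 391, 427 and 248 CPM after IR. Both DN libraries were below all 4 others. The log2 ratios of DN over CD4 and CD8 were -0.37 (-0.40 to -0.34) and -0.61 (-0.64 to -0.58) in control and -0.66 (-0.75 to -0.56) and -0.78 (-0.88 to -0.68) after IR. Scaled to all UMIs, they were -0.38, -0.52, -0.49 and -0.44, in the same direction. The comparisons within a condition share the DN library.

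The largest ratios of DN over CD4 in control were those of Atp5k (0.95), Ndufa3 (0.93) and Atp5mpl (0.75), and the smallest after Cox7a2l were those of Cox4i1 (-0.21) and Ndufs3 (-0.08). Over CD8 in control, Ndufa3 (0.54), Atp5k (0.51) and Atp5md (0.41) had the largest ratios, and Atp5g2 (-0.49) and Uqcrfs1 (-0.45) followed Cox7a2l at the low end. After IR, the largest ratios of DN over CD4 were those of Cox8a (0.31), Uqcrb (0.15) and Ndufa4 (0.11), and Uqcrfs1 (-0.48) and Atp5f1 (-0.41) were low. Over CD8 after IR, Uqcrb (0.18), Ndufb7 (0.15) and Atp5md (0.10) were at the high end and Ndufa6 (-0.65) and Atp5g2 (-0.63) at the low end. Cox4i2, whose UMIs were concentrated in IR CD8, had -2.02 there.

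Promoters of nuclear respiratory genes are known to hold sites of NRF1, ETS-family factors and YY1, so the letters of 3 cores were searched on both strands in RefSeq promoters of GRCm38.p6 from 250 bases before to 50 after the start. A promoter was given for 68 of the 85 subunits. The NRF1 core GCGCATGCG was in 8 of the 68 (11.8%), against 4.66% of 7590 genes at 10 CPM or more in some library and 1.95% of all 27025 genes of the table. The YY1 core AAGATGGCG was in 7 (10.3%), against 4.28 and 1.64%. The ETS core CCGGAAGT was in 5 (7.35%), against 10.6 and 4.31%. In 0 of the 68 promoters did matches of different cores share bases.

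The median log2 ratio was above 0 in subunits with and without each core. The 8 with the NRF1 core were at medians of 1.10, 0.97 and 0.88 (log2, in CD4, CD8 and DN), and the 56 without it that reached 10 CPM had 0.85, 0.72 and 0.63. The 7 with the YY1 core had 0.90, 0.73 and 0.55, against 0.86, 0.74 and 0.66 without it. The 5 with the ETS core had 1.17, 1.05 and 0.86, against 0.86, 0.73 and 0.62 without it. Most subunits with the NRF1 or the ETS core had short transcripts. Those with the NRF1 core were Atp5k, Uqcr11, Atp5l, Ndufa11, Cox6a1 and Atp5g2 (321.5 to 586 bases), Ndufa8 (861) and Uqcrc1 (1653). Those with the ETS core were Uqcr11, Uqcrh, Cox8a and Atp5h (445 to 642 bases) and Ndufs3 (1046). All subunits under 700 bases had medians of 1.19, 1.05 and 0.84, so core and length were not told apart. A match is a description of letters in this window and no evidence of binding. The stretches that follow are shown for 3 subunits with log2 ratios above 0 in each subset, Cox6a1 and Ndufa11 with the NRF1 core and Uqcr11, which holds both the NRF1 and the ETS core, with the ETS core, chosen because the match lies upstream of the gene in both annotations. Cox6a1 had log2 ratios of 0.76, 0.60 and 0.41, Ndufa11 of 1.0, 0.85 and 0.85, and Uqcr11 of 1.72, 1.28 and 1.13 in CD4, CD8 and DN. The core is in capitals, with 20 bases on either side, on the strand of the gene. They lie at chr5:115349092-115349140 (minus strand), chr17:56717682-56717730 (plus strand) and chr10:80406860-80406907 (minus strand).
Cox6a1: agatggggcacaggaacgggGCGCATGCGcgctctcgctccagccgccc
Ndufa11: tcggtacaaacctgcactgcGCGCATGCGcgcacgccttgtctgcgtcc
Uqcr11: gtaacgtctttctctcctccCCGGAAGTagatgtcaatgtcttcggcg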

How the data were processed

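The deposited files hold UMI counts per gene and cell barcode, which the authors made from 3′ 10x Chromium v3.1 reads with Cell Ranger on mm10. The file headers name version 5.0.1 for the 3 control tables and 6.0.1 for the 3 IR tables, and the submitters' processing notes name 6.0.1. The methods say that default settings were used, without spelling out strand or introns. If these are the Cell Ranger defaults, reads on exons and on the strand of the transcript were counted.

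From these counts, barcodes with under 500 features or over 20% mitochondrial UMIs were dropped, together with the top 5% of barcodes by UMIs in each library, which stood in for a doublet caller. All 6 libraries were clustered together without batch correction (Leiden, resolution 1, 30 components, 15 neighbours). Of 23 clusters, 2 in which under 50% of cells had a Cd3 UMI were dropped. UMIs were summed over the 4042 to 10108 kept cells, 6310801 to 77429989 UMIs a library. Nuclear genes were scaled to the 21104 retained features, those in at least 5 cells without the 104 mitochondrial, ribosomal protein and Malat1 features, and mitochondrial genes to all UMIs. With 1 library a group no test was run. Ratios have exact 95% intervals from the binomial split of the 2 counts, and levels exact Poisson intervals. Features needed 10 CPM in the higher library, and a floor of 3 counts was used for genes at 0.

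Genes named were all mitochondrial genes, Sdha to Sdhd, the isoform families, members with at most 3 UMIs, and in each of the 7 comparisons the 3 largest and 3 smallest ratios among structural subunits at 50 CPM. Members outside this rule, such as Uqcr11, Uqcrc2, Atp5a1, Atp5c1, Ndufa11, Sdhaf1 and Ndufb1-ps, were named after their values were seen. The members and the lists were chosen with earlier results of these data known. All 111 members matched GENCODE M21 (GRCm38), and promoters came from RefSeq GRCm38.p6. Promoters of Ndufs1, Sdhc, Cox4i1, Uqcrc2 and Atp5a1 were among the 17 not matched. The tools were Python 3.11.15, numpy 2.4.6, scipy 1.17.1, pandas 2.3.3, scanpy 1.11.5, igraph 0.11.9 and matplotlib 3.10.9, with R 4.3.3 and edgeR 4.0.16 for TMM factors only. The scripts were tested on simulated data. The alternatives were the other total, TMM factors, no cell filters, a mitochondrial limit of 10%, no shared barcodes, no minimum CPM, means over cells, the median over subunits, centring by intronic length and, added after the data were seen, centring by transcript length and cells of 2000 to 4000 UMIs.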

Additional observations from a re-analysis of the deposited data

Results flagged for a closer look

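mt-Nd6, the complex I subunit read from the other strand of the mitochondrial genome, was below its control level after IR in CD4 and above it in CD8. Neither was past 1.5-fold on the scale of all UMIs. Scaled to retained UMIs, mt-Nd6 was past 1.5-fold higher in CD8 and still below control in CD4. On the scale of all UMIs, the log2 ratio of IR over control was -0.49 in CD4 and 0.24 in CD8, a difference of -0.73 between the subsets. With 1 library a group the difference was not tested. The gene had 363 UMIs in IR CD8 and 563 in IR CD4, and it shares 14 bases with mt-Nd5 on the opposite strand.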

How the results depend on the processing

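No paired analysis was run, because each group was 1 library and no result came from a test. The 3 subsets, which are different cell types, were not taken as replicates of a condition. Values are given in the order IR over control in CD4, CD8 and DN, then DN over CD4 and over CD8 in control and DN over CD4 and over CD8 in IR. The log2 ratios of nuclear subunits stayed above 0 after IR in the 3 subsets under the alternatives listed here, and those of the mitochondrial sum below 0 under the 7 of them run for it (other total, TMM factors, no cell filters, a mitochondrial limit of 10%, no shared barcodes, means over cells, and cells of 2000 to 4000 UMIs). The order of DN against CD4 and CD8 was less stable, and the cause was not tested.

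With the other total, the log2 ratios of nuclear subunits were 0.63, 0.40, 0.50, 0.21, 0.01, 0.077 and 0.12, the last 3 reversed, and those of mitochondrial genes were -0.71, -0.51, -0.90, -0.32, -0.015 (reversed), -0.52 and -0.41. With TMM factors they were 1.02, 0.93, 0.65, 0.19, -0.10, -0.18 and -0.38 for nuclear and -0.68, -0.41, -0.94, -0.35, -0.026 (reversed), -0.61 and -0.56 for mitochondrial genes. Without cell filters they were 0.95, 0.80, 0.62, 0.21, -0.10, -0.12 and -0.27 for nuclear genes, and for mitochondrial genes -0.81 in DN, then -0.34, -0.028 (reversed), -0.076 and 0.11 (reversed). As means over cells they were 1.11, 0.85, 0.74, 0.30, -0.10, -0.075 and -0.21 for nuclear genes and -1.32, -1.13, -1.21, -0.48, 0.015 and -0.36 for all but the last of the mitochondrial ones. In cells of 2000 to 4000 UMIs they were 2.23, 1.31, 1.65, 0.47, -0.61, -0.10 and -0.26 for nuclear and -1.99, -1.84, -2.25, -0.001, 0.42, -0.27 and 0.004 (reversed) for mitochondrial genes.

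With a mitochondrial limit of 10%, nuclear subunits were at 0.98 in CD4 and 0.21 for DN over CD4 in control, and mitochondrial genes at -1.01, -0.91, -1.07, -0.30 and 0.091 in the first 5 comparisons. Without shared barcodes, mitochondrial genes were at 0.085 for DN over CD8 in control. The median over subunits was 0.86, 0.72, 0.63, 0.12, -0.11, -0.13 and -0.18. Centred by intronic length it was 0.77, 0.79, 0.60, 0.07, -0.061 and -0.066 in the first 6, and by transcript length 0.34, 0.32, 0.16, 0.043, -0.049, -0.10 and -0.21.

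Counts of subunits past 1.5-fold moved with the total of all UMIs to 36 higher and 5 lower in CD4, 22 higher and 11 lower in CD8, and 5 lower in DN. The shares of all features beside these are given above. For DN over CD8 in control the counts became 2 higher and 0 lower, beside 8.84 and 5.3% of all features on that scale. For DN over CD4 in IR they became 0 lower, beside 3.56%. For DN over CD8 in IR they became 1 higher and 1 lower, beside 37.3 and 4.64%. With no minimum CPM there was 1 lower for DN over CD4 in control, 1 higher and 2 lower for DN over CD8 in control, and 1 higher and 2 lower for DN over CD4 in IR. The share of all features was not counted under that setting.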
